A study of Homo sapiens with 58 samples.

Results

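The genes described here encode the factors that start and elongate protein synthesis, read through the footprints of the RNA-binding protein HuR on their transcripts. They were chosen by name alone: every peak of the combined HuR CLIP table whose gene symbol starts with EIF or EEF and a digit, after repeated lines were dropped and names ending in P and digits (the pattern of pseudogene names) were left out. This gave 1211 of 387214 peaks, each 20 nucleotides long, in 61 of 13836 named genes. RefSeq lists 59 of the 61 genes as protein-coding and 2, EIF1B-AS1 and EIF3J-DT, as lncRNA. For each gene the peaks of an annotation class (3'UTR, intron, snoRNA and so on) were also added up, which gave 159 of 30217 gene-and-class sums. The name rule also removed 41 peaks, among them those of the protein-coding genes EIF4EBP1 and EIF4EBP2, whose values are given near the end.

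The study mapped where in the cell HuR meets its RNA targets, in Huh-7.5, a human hepatocellular carcinoma line. In CLIP, ultraviolet light (here 400 and then 200 mJ/cm2) crosslinks protein to RNA, and the RNA fragments that co-precipitate with HuR are sequenced as tags. Wild-type cells, without an APEX reaction, were split into nuclear and cytoplasmic fractions after mock treatment or after 0.5 mM sodium arsenite for 45 minutes, with 3 libraries for each of the 4 groups. Lines that express the biotinylating peroxidase APEX with a nuclear localization signal (APEX-NLS), with a nuclear export signal (APEX-NES) or fused to the stress granule protein G3BP1 (APEX-G3BP1) were labelled with biotin phenol under the same mock and arsenite conditions. They gave 17 input libraries from the HuR precipitate alone and 29 enriched libraries with a further streptavidin capture. The promoter of the APEX constructs and whether a line is 1 clone are not given in the sources used here, and no label says that replicates came from separate cultures, so p-values measure only the spread between these libraries.

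Eukaryotic initiation begins when eIF2, with GTP and initiator tRNA, joins eIF3, eIF1, eIF1A and eIF5 on the small ribosomal subunit, and the cap-binding complex eIF4F (eIF4E, eIF4A and eIF4G, with eIF4B as helper) brings in the mRNA. Elongation then runs on eEF1A, recharged by the eEF1B subunits, on the translocase eEF2 and on eIF5A, which relieves stalls. Arsenite is an oxidative stress that activates kinases of the eIF2 alpha subunit, lowers initiation and gathers stalled initiation complexes into stress granules. HuR (ELAVL1) is a mostly nuclear, shuttling protein that binds U-rich and AU-rich stretches, chiefly in introns and 3'UTRs.

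Depth set what could be seen. The 12 fraction libraries held 235471 to 673322 tags in listed peaks, of which 1084 to 3486 lay on translation factors. The inputs held 1353 to 484305 tags with 7 to 1713 on these genes, and the enriched libraries 519 to 86419 with 2 to 471. Of 8 hepatocyte markers 6 carried tags (23058 in all, with APOA1 and TTR at 0), while the 4 fibroblast markers had none, 1 of 3 leukocyte markers (PTPRC) had 55 and the endothelial markers had 10. The summed hepatocyte marker level was 1112 to 1195 CPM in nuclear mock, 1774 to 2520 in cytoplasmic mock, 654 to 707 in nuclear arsenite and 945 to 1062 in cytoplasmic arsenite libraries. CPM here is tags per 1000000 of the library's own total. In 5 pairs of enriched libraries, all of set JL0388, the replicates differed by no more than sampling noise, so values from enriched libraries are given as single values, ranges or medians, and the tests between them also with such a pair counted as 1. The nuclear RNA NEAT1 stood at 413 CPM in nuclear and 125 CPM in cytoplasmic mock libraries, whereas MALAT1 stood at 2561 and 2394 CPM.

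The reference tables hold the letters of just 2 translation factor peaks, those that fall in the windows around RefSeq start sites. They are shown because HuR is known for U-rich sites and because the EEF1A1 peak belongs to a 5'UTR sum that passed a test further on. Capitals mark the longest run of T on the RNA strand, read from RefSeq promoter windows of GRCh38.p14.
EEF1A1, 5'UTR peak at chr6:73521001-73521021 on the minus strand: cgggTTTgccgccagaacac
EEF1B2, intron peak at chr2:206159719-206159739 on the plus strand: cTTccaaacgcaacgaaagg
The EEF1A1 peak, 12 bases past the RefSeq start of the elongation factor eEF1A1, held 101 tags over all libraries. The EEF1B2 peak, 174 bases before the RefSeq start of this eEF1B subunit gene, held 43. The motif TTT, read on the peak's strand, occurred in 196 of all 368 peaks in such windows (53.3%), and TTTT, which contains it, in 106 (28.8%).

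Most HuR peaks on translation factor genes were intronic, while 3'UTRs held 51.3% of the tags. That order of tags rests on EIF5AL1 and EIF2S3B, near-copies of EIF5A and EIF2S3 described below: without both, 3'UTRs held 12402 of 31576 tags (39.3%) and introns 14254 (45.1%). Introns held 859 of the 1211 peaks (70.9%, against 55.5% of all peaks) and 14320 of 39652 tags. All peaks here include 84358 of 387214 without a gene name, which the name rule could not pick. The shares set side by side therefore have unlike bases, and no excess is read from them. 3'UTRs held 210 peaks (17.3%, against 9.71%) and 20361 tags. A smaller group of 13 peaks lay on snoRNAs inside introns of these genes (1.07%, against 0.0403% of all peaks) and held 2418 tags. The classes 5'UTR and CDS held 19 peaks with 515 tags and 16 peaks with 303 tags. Of the 61 genes, 44 had at least 1 3'UTR peak and 17 had none, and the median peak held 12 tags, against 10 over all peaks.

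The tags were spread unevenly over the machinery. The eIF4F proteins and their partners held 37.8% of the tags in 11 genes and the eIF5A genes 21.4% in 3. The eIF3 genes held 12.7% in 14 and the eIF2 group 12.4% in 6. The eIF2 group counts EIF2A and EIF2D, which encode separate factors, with the eIF2 subunit genes. The 7 genes of eIF1, eIF5 and eIF6 held 5.48%, the eEF1 group (with EEF1E1, not an eEF1 subunit) 3.25% and eEF2 with its kinase 2.24%. The methyltransferases of elongation factors held 1.79%, the eIF2 alpha kinases 1.76% and the eIF2B exchange factor 0.630%. In 5 genes lay 54.7% of the tags: EIF4G3 (7720 tags), EIF5AL1 (7275), EIF2S3 (3176), EIF4B (1979) and EIF3A (1542).

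Just 1 peak carried nearly all of EIF5AL1. The peak at chr10:79513426-79513446, plus strand, in the 3'UTR of this eIF5A-like gene, held 7223 tags and was seen in 50 of 58 libraries. EIF5AL1 is a near-copy of EIF5A, as EIF2S3B is of EIF2S3, and how the authors' mapping divided reads between such copies is not given in the sources used here. Values for each copy are therefore uncertain as to their gene, and the totals below are also given without EIF5AL1 and EIF2S3B, an alternative chosen after seeing the data.

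EIF4G3, a scaffold of eIF4F, was bound over its length. Its 373 peaks made up 30.8% of all translation factor peaks, 340 of them were intronic, and introns held 87.1% of its tags. The largest intronic peak held 333 of 6725 intronic tags, or 4.95%. Over its 370606 nucleotides the gene had 1.01 peaks per kilobase, where the median of 2877 protein-coding genes of at least 100000 nucleotides was 0.147 and 100 of them were denser.

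Where in the transcript HuR sat differed sharply between the fractions. In nuclear mock libraries 23.2% ± 0.533 (SD, n = 3) of translation factor tags lay in 3'UTR peaks and 55.8% ± 0.892 in introns. In cytoplasmic mock libraries the order was turned, with 77.8% ± 5.26 in 3'UTRs and 17.3% ± 4.75 in introns. After arsenite the fractions were closer, with 3'UTR shares of 37.3% ± 2.26 in nuclear and 53.7% ± 2.06 in cytoplasmic libraries and intron shares of 49.2% ± 2.38 and 39.5% ± 1.75. No nuclear library overlapped a cytoplasmic one of the same treatment in either share. Over all peaks the 3'UTR share ran the same way at lower values, 11.7% and 42.3% in nuclear and cytoplasmic mock and 19.2% and 24.5% after arsenite. Peaks without a gene name are included there. Without EIF5AL1 and EIF2S3B the translation factor 3'UTR shares were 15.1% and 63.5% in nuclear and cytoplasmic mock libraries and 29.8% and 41.0% after arsenite.

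**Figure D1:**
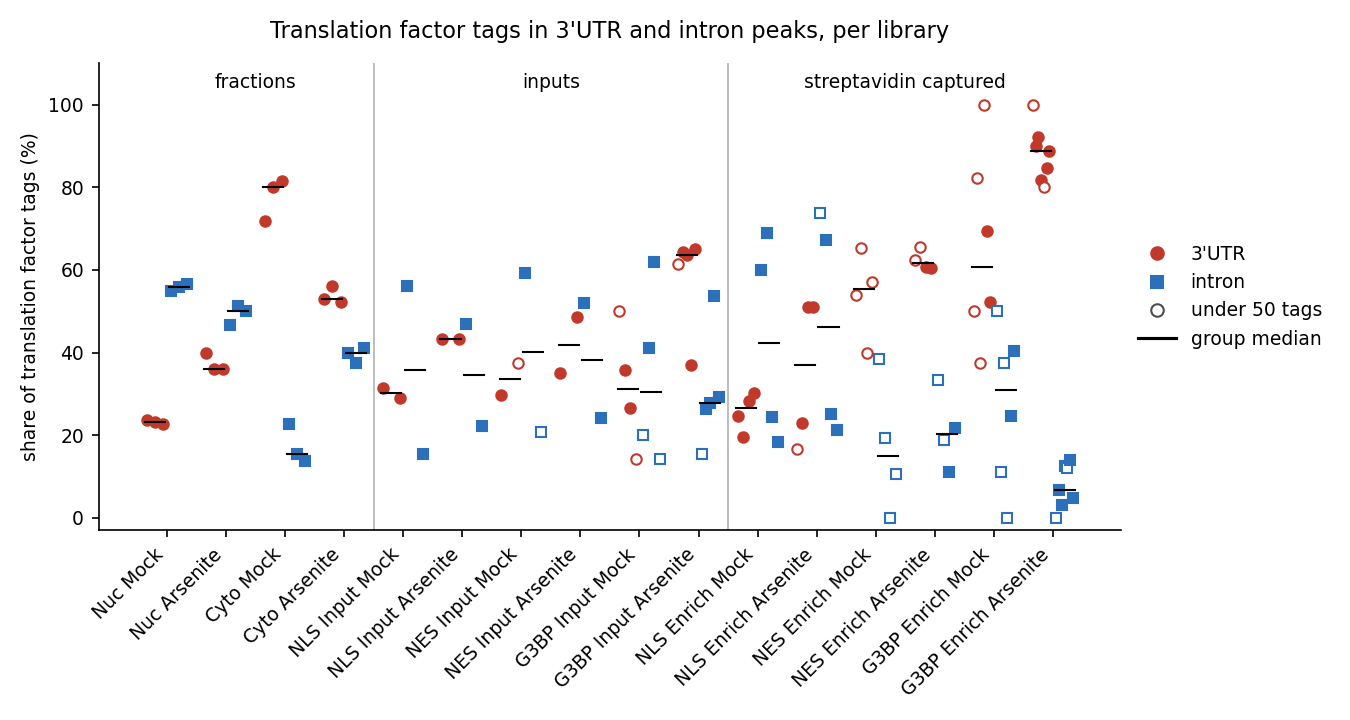
Share (%) of translation factor tags in 3'UTR peaks (red circles) and in intron peaks (blue squares), 1 point per library, for the 16 groups, with black lines at group medians and open symbols for libraries with fewer than 50 such tags. Among the fractions, cytoplasmic mock libraries have 3'UTR shares of 71.8% to 81.5% and nuclear mock libraries sit near 23.2%. G3BP1-enriched arsenite libraries lie at 80.0% to 100%, and the G3BP1-enriched mock libraries spread from 37.5% to 100%, the latter in a library with 2 such tags.

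As a share of all tags in peaks, translation factors took 0.453% ± 0.0129 in nuclear mock, 0.441% ± 0.0169 in nuclear arsenite, 0.771% ± 0.105 in cytoplasmic mock and 0.495% ± 0.020 in cytoplasmic arsenite libraries (SD, n = 3). Without EIF5AL1 and EIF2S3B the same shares were 0.409%, 0.391%, 0.461% and 0.386%, so that much of the higher cytoplasmic mock value came from those near-copies. A higher tag level can come from more RNA in the fraction or from more HuR on it, and CLIP tags alone cannot tell these apart.

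The first comparison asks which translation factor RNAs HuR held in the nucleus and which in the cytoplasm of unstressed cells. In the nuclear fraction 22 of 36 3'UTR sums were lower, and 8 of 43 intron and 6 of 7 snoRNA sums were higher. No 3'UTR sum of these genes was called higher and no intron or snoRNA sum lower. Of 129 sums tested, 20 were higher and 25 lower in the nucleus (limma on log2 values with a pseudocount of 2.28 CPM, Benjamini-Hochberg over all 21245 sums, adjusted p below 0.05). Over all sums 29.0% were called, 12.8% higher and 16.2% lower. By edgeR on recovered whole tags the split was 13 higher and 25 lower. All log2 differences below are on this log2(CPM + pseudocount) scale, which understates the change of low sums.

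The 3'UTR members as a group followed the table. Of 36 tested 3'UTR sums 22 were lower in the nucleus, with a median difference of -1.25, where 49.4% of all 3'UTR sums were lower and 0.722% higher, at a median of -0.98. The intron members also sat at the background, with 8 of 43 higher and a median of 0.47, against 25.1% higher, 1.78% lower and 0.48 over all introns. Of 7 snoRNA sums 6 were higher (median 1.43), against 85.3% of all 68 snoRNA sums (median 1.98). The groups did not overlap in 58 of the 129 sums (45.0%, against 42.7% of all sums), and 26 of the 45 calls held in all 6 fits that each left out 1 library.

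Among the eIF2 genes, EIF2S3 encodes the gamma subunit, which binds GTP and the initiator tRNA. Its 3'UTR sum stood at 53.9, 42.7 and 53.1 CPM in nuclear mock and at 215, 301 and 278 CPM in cytoplasmic mock libraries. Every cytoplasmic library was far above every nuclear one, a difference of -2.35 ± 0.17 (SE, limma adjusted p = 3.48e-07). EIF2S1, the alpha subunit that stress kinases phosphorylate, differed by -2.37 in its 3'UTR (limma adjusted p = 9.23e-05), from 4.94 CPM ± 2.55 in the nucleus to 34.7 CPM ± 10.8 in the cytoplasm (SD, n = 3). EIF2S3B, the near-copy of EIF2S3, differed by -2.24. With these, 3 of 5 tested 3'UTR sums of the eIF2 group were called, at a median of -2.24. Those of EIF2S2 and of EIF2A, a separate factor counted in this group, were not.

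In the eIF5A family the EIF5AL1 3'UTR sum was 147, 140 and 126 CPM in nuclear mock and 805, 1187 and 1335 CPM in cytoplasmic mock libraries. This was a difference of -2.96 ± 0.17 (SE, limma adjusted p = 5.17e-08), and no fit without 1 library lost it (highest adjusted p 0.00599, limma). EIF5A itself stood at 14.6, 22.7 and 23.2 CPM in the nucleus and 98.9, 156 and 147 CPM in the cytoplasm, a difference of -2.60 ± 0.23. The 2 genes thus had similar fraction differences at unlike tag levels, with the largest EIF5A peak at chr17:7312128-7312148 holding 736 tags.

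Of the eIF4F group, 6 of 8 tested 3'UTR sums were lower in the nucleus (median -2.01): EIF4A1, EIF4B, EIF4E, EIF4G1, EIF4G2 and EIF4G3. EIF4B, which stimulates the eIF4A helicase, had 3'UTR sums of 20.4, 8.18 and 15.4 CPM in nuclear and 88.3, 135 and 160 CPM in cytoplasmic mock libraries (-2.97 ± 0.28). EIF4E, the cap-binding protein, had 20.4, 11.8 and 13.5 CPM against 60.6, 80.5 and 109 CPM (-2.28 ± 0.25). For EIF4G2, the eIF4G-like factor DAP5, the 3'UTR sum was at 0 in 2 nuclear mock libraries and at 0.966 CPM in the third, while the cytoplasmic libraries had 16.0, 18.3 and 24.3 CPM (-3.07 ± 0.34).

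The same genes could be higher in the nucleus through another class. EIF4B introns stood at 49.5, 48.2 and 49.2 CPM in the nucleus and 31.9, 23.4 and 19.0 CPM in the cytoplasm (0.95 ± 0.22, limma adjusted p = 0.00462), opposite to its 3'UTR, although the call was lost without cytoplasmic mock replicate 2 (adjusted p = 0.0521). EIF4G3 introns stood at 391, 365 and 402 CPM against 232, 164 and 182 CPM (1.01 ± 0.14, adjusted p = 0.000134), while its 3'UTR differed by -1.89 ± 0.31. For both genes intron and 3'UTR footprints were therefore distributed in opposite ways over the fractions.

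**Figure D2:**
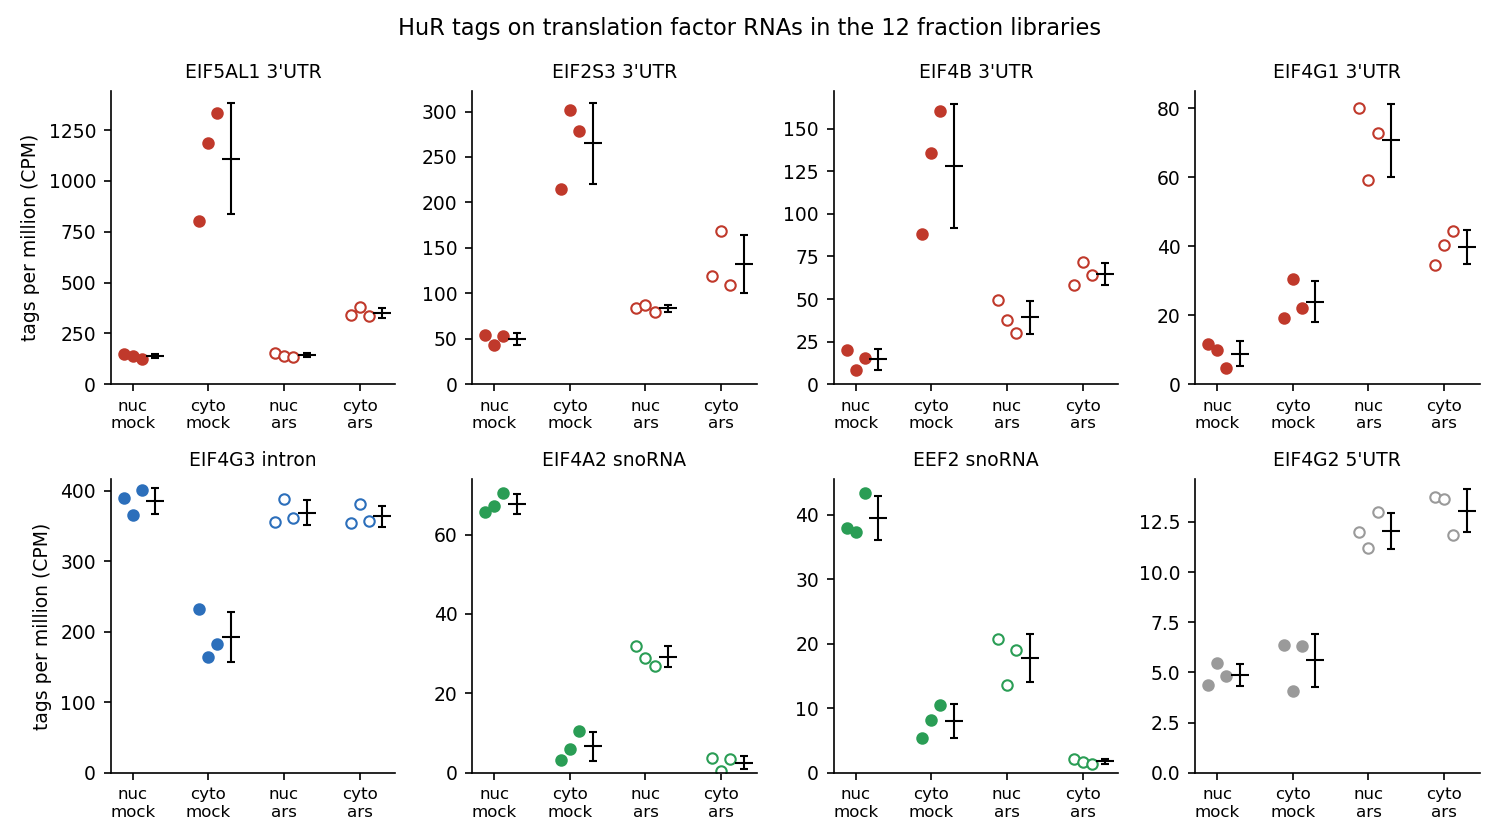
Tags per 1000000 (linear axis from 0) of 8 gene-and-class sums in each of the 12 fraction libraries, filled points mock and open points arsenite, with mean and SD (n = 3) beside them. The EIF5AL1 3'UTR falls from 1109 to 351 CPM in the cytoplasm with arsenite, and EIF4G1 is the 3'UTR whose highest libraries are nuclear arsenite ones.

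For eIF3, the multi-subunit scaffold of the 43S complex, some subunit genes were called lower in the nucleus in the 3'UTR and others higher in introns. EIF3A, its largest subunit, had 3'UTR sums of 8.74, 15.5 and 10.6 CPM in nuclear and 77.6, 97.8 and 94.9 CPM in cytoplasmic mock libraries, a difference of -2.76 ± 0.22 (SE, limma adjusted p = 9.49e-07). EIF3J, a loosely held subunit, and EIF3E were also lower in the nucleus (-1.38 and -0.96), which made 3 of 7 tested eIF3 3'UTR sums. The EIF3E groups overlapped, and its call was lost with a pseudocount 4 times smaller, when scaled to tags in listed peaks, under the replicate block and in 5 of 6 fits without 1 library (adjusted p up to 0.211, limma). Introns were higher in the nucleus for EIF3D, EIF3H, EIF3K and EIF3L, 4 of 11 tested, with EIF3D, a subunit known for cap contacts on some mRNAs, at 6.17 CPM ± 2.25 against 0.340 CPM ± 0.588 (1.68 ± 0.37, SE). The EIF3H intron call was lost in 5 of the 6 such fits (up to 0.144) and with edgeR.

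Among the scanning and subunit-joining factors, 3 of 6 3'UTR sums were lower in the nucleus (EIF1AX, EIF1B and EIF5), at a median of -1.21. EIF1AX, the X-linked eIF1A gene, had 3'UTR sums of 8.74, 2.73 and 9.66 CPM against 37.2, 63.1 and 62.2 CPM (-2.66 ± 0.33), and EIF5, the GTPase-activating protein of eIF2, 10.2, 11.8 and 16.4 CPM against 35.1, 63.1 and 39.0 CPM (-1.65 ± 0.26). EIF5B, the GTPase that joins the subunits, was higher in the nucleus through its introns, with 24.8, 23.6 and 20.3 CPM against 6.38, 8.15 and 7.38 CPM (1.39 ± 0.25).

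The elongation genes were lower in the nucleus in their 3'UTRs as well. EEF1A1 stood at 11.7, 10.9 and 6.76 CPM in nuclear and 36.2, 74.4 and 66.4 CPM in cytoplasmic mock libraries (-2.31 ± 0.29), and EEF1A1 has many processed copies in the genome, so its counts may be shared. EEF1E1 and EEF1G made it 3 of 3 tested 3'UTRs of the eEF1 group, in which EEF1E1 is not an eEF1 subunit. Their calls were each lost in 4 or 5 of the 6 fits without 1 library. The EEF1G call was also lost with no filter or edgeR. EEF2, the translocase, stood at 2.22 CPM ± 0.603 against 13.3 CPM ± 6.83 (-1.71 ± 0.36), and EEF2K, the kinase that inhibits it, differed by -1.09. The EEF1A1 5'UTR sum, which holds the start-site peak printed above, differed by -1.28 (limma adjusted p = 0.0157), lost in 5 of 6 fits without 1 library. The 1 tested 3'UTR sum of the eIF2 alpha kinases and their 3 intron sums were not called.

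The snoRNAs hosted by these genes were the mirror image. Box C/D and H/ACA snoRNAs guide modification of ribosomal RNA and are cut out of introns of host genes, many of them translation genes. The EIF4A2 sum, of which SNORD2 at chr3:186784826-186784846 held 1011 of 1097 tags, stood at 65.6, 67.3 and 70.5 CPM in nuclear and 3.19, 6.11 and 10.5 CPM in cytoplasmic mock libraries (3.06 ± 0.29, limma adjusted p = 2.99e-06). EEF2, through SNORD37 at chr19:3982519-3982539, had 37.9, 37.3 and 43.5 CPM against 5.32, 8.15 and 10.5 CPM (2.05 ± 0.25). EIF4G2, through SNORD97 at chr11:10801490-10801510, had 61.2, 44.5 and 63.7 CPM against 12.8, 20.4 and 27.4 CPM (1.43 ± 0.26). EEF2 and EIF4G2 thus had a snoRNA sum higher in the nucleus and a 3'UTR sum higher in the cytoplasm. EIF4G1 (SNORD66) differed by 1.90, and EEF1B2 (SNORD51 and SNORA41) was at 0 in all 3 cytoplasmic libraries, at least 3.39-fold higher in the nucleus against a floor of 3 tags over the group. The class comes from the deposited annotation and the snoRNA names from RefSeq positions, so reads of the unspliced host intron over a snoRNA cannot be told apart from the snoRNA.

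Peak by peak, 8 of 608 tested translation factor peaks were higher and 24 lower in the nuclear mock libraries, where 2.82% of all peaks were called (0.53% higher and 2.29% lower). edgeR called 2 higher and 13 lower. The largest were the EIF5A peak at chr17:7311939-7311959 (-3.16) and the EIF3A peak at chr10:119033855-119033875 (-3.10 ± 0.24, limma adjusted p = 0.000285), and, in the other direction, the SNORD2 peak (3.14 ± 0.28, adjusted p = 0.000548). The count rested on single libraries: it was 63 without nuclear mock replicate 1, now with 42 higher and 21 lower, 7 without replicate 2, 8 without replicate 3, and 9, 0 and 3 without cytoplasmic mock replicates 1, 2 and 3.

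The same fraction comparison after arsenite asks how stressed cells divided these RNAs. Fewer sums were called, with 7 of 142 tested sums higher and 10 lower in the nucleus, against 4.99% called over all sums (1.62% higher and 3.38% lower). All 10 lower sums were 3'UTRs, of 39 tested, with 1 higher (9.89% and 1.03% of all 3'UTR sums), and all 10 were among the 25 lower in mock cells (40% of those 25). Of the 7 higher sums 5 were also higher in mock cells (71.4% of the 7, 25% of the 20). The mock and arsenite comparisons have no library in common, and the overlap of calls over all sums is not given here. Without nuclear arsenite replicate 3 or cytoplasmic arsenite replicate 2 the count was 4, and without cytoplasmic arsenite replicate 1 it was 9.

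EIF5AL1 was the 3'UTR with the firmest difference after arsenite, with 155, 141 and 134 CPM in the nucleus and 341, 379 and 335 CPM in the cytoplasm (-1.28 ± 0.09, SE, limma adjusted p = 2.04e-09). EIF2S1 (-1.46), EEF1A1 (-1.21), EEF2 (-1.19), EIF5A (-1.05), EIF2S3B (-0.78), EIF5 (-0.77), EIF4B (-0.71) and EIF2S3 (-0.62) were lower in the nucleus too, each with its call lost in 2 to 5 of the 6 fits without 1 library. EIF4G2 (-1.09) lost its call in all 6, with the smaller pseudocount and when scaled to tags in listed peaks. The snoRNA sums of EIF4A2 (2.78 ± 0.28), EEF2 (2.30 ± 0.28) and EIF4G2 (2.27 ± 0.24) remained higher in the nucleus and kept their calls in all 6 such fits, and with EIF4G1, whose call was lost in 3 of 6, made 4 of 8 tested, against 60.6% of all snoRNA sums. Of 47 intron sums 1, the low EIF3G, was called higher (at least 3.34-fold, cytoplasmic libraries at 0, call lost in 5 of 6 fits without 1 library) and none lower, against 1.41% and 0.76% over all introns.

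EIF4G1 was the exception. The 3'UTR of this main eIF4G scaffold, with 560 of its 569 tags in the peak at chr3:184335218-184335238, stood at 11.7, 10.0 and 4.83 CPM in nuclear mock and 19.1, 30.6 and 22.1 CPM in cytoplasmic mock libraries, a difference of -1.27 ± 0.30 (SE, limma adjusted p = 0.00637). After arsenite it stood at 80.1, 59.2 and 72.8 CPM in the nucleus and 34.7, 40.4 and 44.5 CPM in the cytoplasm, now 0.79 ± 0.15 higher in the nucleus (adjusted p = 0.00201). Of the 45 sums called in mock cells it alone was called in the opposite direction after arsenite. How often that happened over all sums is not given here. The mock call was lost without cytoplasmic mock replicate 2 or 3 (adjusted p up to 0.0898, limma), and the arsenite call without nuclear arsenite replicate 3 or cytoplasmic arsenite replicate 2 (up to 0.157).

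**Figure D3:**
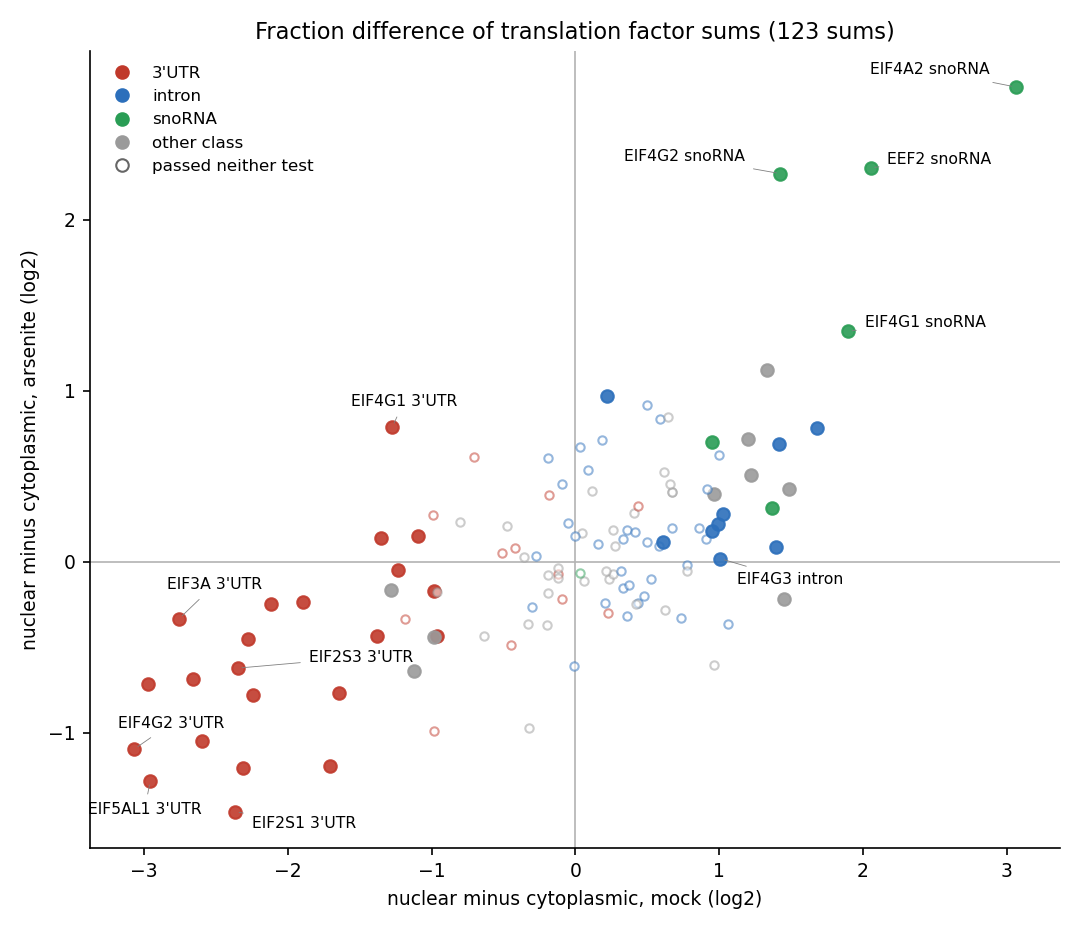
Nuclear minus cytoplasmic log2 difference of each of 123 translation factor sums tested in both treatments, mock on the horizontal and arsenite on the vertical axis, coloured by class, filled where at least 1 of the 2 tests was passed. The 3'UTR sums lie at the left and closer to 0 after arsenite, the snoRNA sums of EIF4A2, EEF2 and EIF4G2 stay at the top right, and the EIF4G1 3'UTR lies above 0 at a mock value of -1.27.

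Within the cytoplasm, arsenite was compared with mock. The calls were mainly 3'UTR sums that fell: 6 of 131 sums were higher and 15 lower, against 13.3% called over all sums (6.7% higher and 6.62% lower). Of 39 3'UTR sums 11 fell and 1 rose, at a median of -0.58, where 18.6% of all 3'UTR sums fell and 0.942% rose, at a median of -0.30. Of 44 intron sums 3 rose and none fell (13.5% of all intron sums rose and 1.05% fell). The calls on EIF5AL1 and EIF3A held in all 6 fits without 1 library, and the other 19 lost theirs in at least 1. The count was 6, 3 and 6 without cytoplasmic arsenite replicates 1, 2 and 3, and 4 and 9 without cytoplasmic mock replicates 2 and 3. The summed hepatocyte markers were also lower after arsenite in both fractions (values above), and their part in these differences was not tested.

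EIF5AL1 fell from 1109 CPM ± 273 to 351 CPM ± 23.8 (SD, n = 3), by 1.62 on the log2 scale (limma adjusted p = 1.19e-05), and EIF5A from 134 CPM ± 30.5 to 59.7 CPM ± 1.54, by 1.11. The 3'UTR of EIF5A2, the third gene of the family, differed by -0.94 and was not called (adjusted p = 0.128). EIF2S3 fell by 1.00, to 119, 168 and 109 CPM, and EIF2S1 by 0.78, a call lost with the smaller pseudocount. EIF4E fell by 1.26, to 33.9, 39.2 and 25.7 CPM, and EIF4B by 0.92, to 58.5, 71.6 and 64.0 CPM. EIF3A fell by 1.09, to 40.4, 47.8 and 35.5 CPM, with no library of one treatment inside the range of the other. EIF1AX fell by 1.24, EIF1B by 1.17, EIF2A by 1.21 and EEF1A1 by 1.04.

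The sums that rose in the cytoplasm included EIF4G3 introns, from 232, 164 and 182 CPM to 354, 381 and 358 CPM (0.92 ± 0.15, SE, limma adjusted p = 0.000856, and 0.0697 without cytoplasmic arsenite replicate 2). The arsenite cytoplasm thereby reached the nuclear level, 356, 389 and 362 CPM after arsenite, and the fraction difference after arsenite was 0.02 (adjusted p = 0.93). EIF4G2 introns rose by 1.09, the introns of the methyltransferase gene EEF1AKMT1 by 1.19, and repeat-annotated (TE) peaks of EIF4G3 by 0.97. EIF4G1 was the 1 3'UTR that rose (0.70 ± 0.21, adjusted p = 0.0388), a call lost in each of the 6 fits without 1 library. EIF4G2 5'UTR peaks rose from 6.38, 4.07 and 6.33 CPM to 13.7, 13.6 and 11.8 CPM.

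Within the nucleus, 6 of 35 3'UTR sums rose with arsenite and 3 of 8 snoRNA sums fell. Of 123 sums 7 were higher and 6 lower, against 6.13% called over all sums (4.48% and 1.65%). No 3'UTR sum fell (13.8% of all 3'UTR sums rose and 0.45% fell), at a median of 0.37 beside 0.39 over all. Of 43 introns 3 fell and none rose (2.65% and 0.979% of all), and 34.2% of all snoRNA sums fell. None of the 13 calls held in all 6 fits without 1 library: the count was 4, 4 and 0 without nuclear arsenite replicates 1, 2 and 3, and 7 without nuclear mock replicate 1 or 3.

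The EIF4G1 3'UTR rose by 2.76 ± 0.24 in the nucleus, from 8.83 CPM ± 3.56 to 70.7 CPM ± 10.6 (SD, n = 3; limma adjusted p = 5.96e-06, and 0.0617 without nuclear arsenite replicate 3). EIF3A rose by 1.33, from 8.74, 15.5 and 10.6 CPM to 33.6, 25.6 and 38.1 CPM, and EIF4B also by 1.33, to 49.6, 37.6 and 30.3 CPM. EIF2S3B rose by 1.22, EIF4G3 by 1.22 and EIF2S3 by 0.73, the last from 53.9, 42.7 and 53.1 CPM to 84.1, 87.2 and 79.7 CPM. These 6 of 35 tested 3'UTR sums fall in the eIF2, eIF3 and eIF4F groups, where 13.8% of all 3'UTR sums rose. Tags of EIF2S3B may stem from EIF2S3. EIF5AL1 stood at 155, 141 and 134 CPM, a difference of 0.05 from mock (adjusted p = 0.82), EIF5A differed by 0.44 (0.30) and EEF1A1 by 0.06, none of them called.

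EIF4G2 5'UTR peaks were the sum that rose in both fractions besides the EIF4G1 3'UTR. They went from 4.37, 5.46 and 4.83 CPM to 12, 11.2 and 13.0 CPM in the nucleus (1.00 ± 0.27, limma adjusted p = 0.0396, lost with edgeR, under the replicate block and in all 6 fits without 1 library). No library of one treatment overlapped one of the other in either fraction, as held for 31.8% of all sums in the cytoplasm and 25.3% in the nucleus. The cytoplasmic call was lost in 4 of 6 fits without 1 library.

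The snoRNA sums that fell in the nucleus were EIF4A2 at 32.0, 28.8 and 26.9 CPM after arsenite (by 1.16), EEF2 at 20.8, 13.6 and 19.1 CPM (by 1.07) and EIF4G2 at 24.8, 28.0 and 35.5 CPM (by 0.89). In the cytoplasm EIF4G2 fell by 1.73, to 2.89, 4.55 and 5.56 CPM, and EEF2 by 1.32, to 2.17, 1.71 and 1.39 CPM. EIF4A2 stood there at 3.61, 0.568 and 3.48 CPM and was not called. The introns that fell in the nucleus were those of EIF4B (by 0.73), EIF3E (by 0.84) and EIF3M (by 1.32, lost with the smaller pseudocount), where EIF4B went from 49.5, 48.2 and 49.2 CPM to 24.0, 32.8 and 29.5 CPM.

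**Figure D4:**
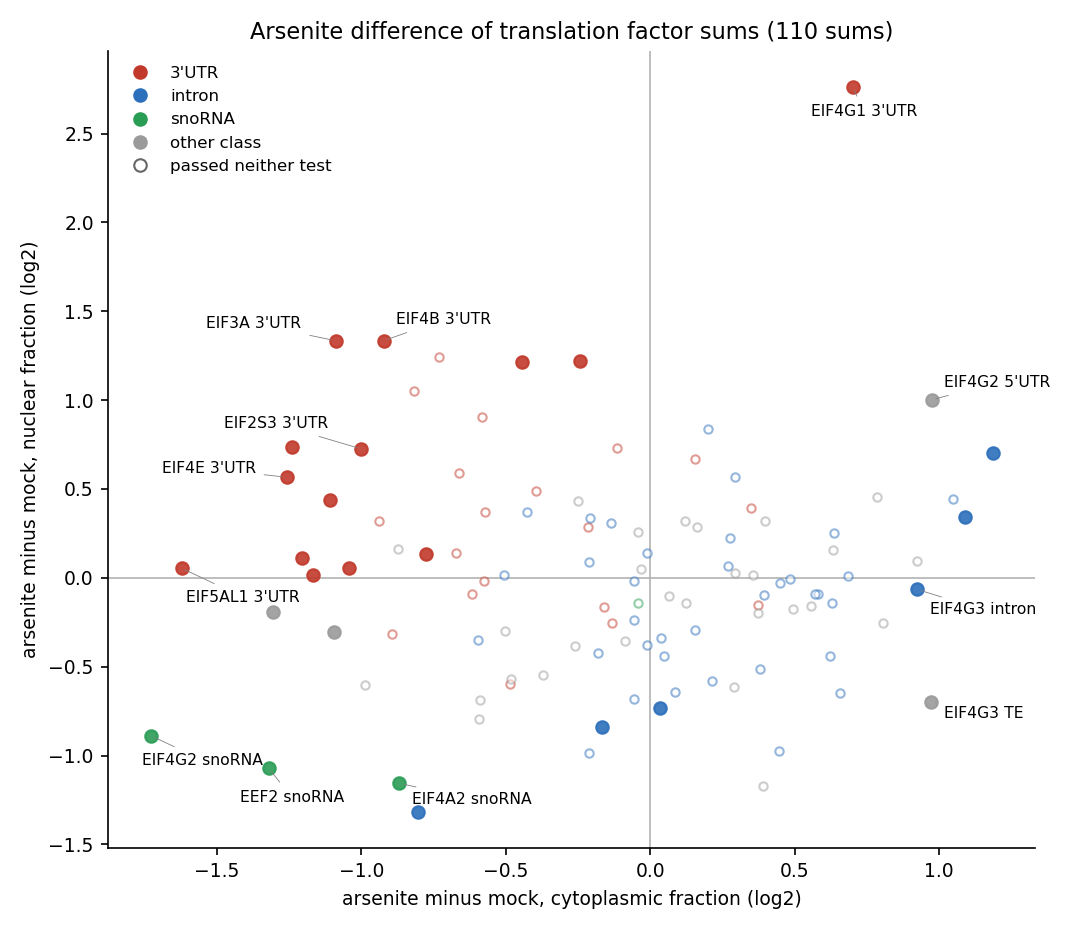
Arsenite minus mock log2 difference of 110 translation factor sums tested in both fractions, cytoplasm on the horizontal and nucleus on the vertical axis, coloured by class, filled where at least 1 of the 2 tests was passed. Red 3'UTR points spread to the upper left, snoRNA sums lie at the lower left, and the EIF4G1 3'UTR stands alone at 0.70 and 2.76.

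Whether the arsenite difference itself differed between the fractions was tested as an interaction over all 12 fraction libraries. Of 153 sums 13 were positive (arsenite raised the nuclear relative to the cytoplasmic level) and 5 negative, against 11.0% over all sums (7.05% and 3.99%), and edgeR gave 16 and 3. All 13 positive sums were 3'UTRs, of 42 tested, at a median of 0.86, where 24.2% of all 3'UTR sums were positive at a median of 0.63. By role they were 6 of 10 in the eIF4F group (median 1.74), EIF2S3 and EIF2S3B of 5 in the eIF2 group, both EIF5A and EIF5AL1, and EIF3A, EIF1AX and EEF1A1. The largest were EIF3A (2.42 ± 0.30), EIF4B (2.26 ± 0.30) and EIF4G1 (2.06 ± 0.33), each with its call kept in all 12 fits without 1 library.

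The negative interactions were the introns of EIF4G3 (-0.99 ± 0.15, limma adjusted p = 1.20e-06), EIF5B (-1.30) and EIF2AK3 (-1.07), the last the gene of the eIF2 alpha kinase PERK, and the TE peaks of EIF4G3 (-1.67) and EIF2S1 (-1.56). In all, 15 of the 18 interaction calls held in all 12 fits, and the others, EEF1A1, EIF2AK3 and EIF2S1 TE, held in 3 of 12. EEF1A1 and EIF2S1 TE also lost theirs with the smaller pseudocount, and EIF2AK3 and EIF2S1 TE with edgeR. For EIF4G3 the intron groups were at 386 CPM ± 18.5 in nuclear mock, 193 CPM ± 35.1 in cytoplasmic mock and 364 CPM ± 14.7 in cytoplasmic arsenite libraries.

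Single peaks gave few calls for arsenite. In the cytoplasm 4 of 706 peaks rose and 7 fell, against 0.76% called over all peaks (0.24% and 0.52%), and edgeR turned the split to 8 and 1. The peaks that rose were intronic, 3 in EIF4G3, led by chr1:21118434-21118454 (1.95), and 1 in EIF3J at chr15:44545230-44545250 (1.85). In the nucleus 2 of 711 rose and 1 fell, against 0.186% over all (0.152% and 0.034%): the EIF4G1 3'UTR peak (2.74 ± 0.28, limma adjusted p = 0.00168), the EIF2S3B peak at chr12:10507478-10507498 (1.49) and, falling, SNORD2 (by 1.31). Between the fractions after arsenite 4 of 825 were called, against 0.257%, 3 higher and 1 lower (0.11% and 0.147% of all peaks), namely the EIF5AL1 peak, lower, and the snoRNA peaks of EIF4A2, EEF2 and EIF4G2. Without cytoplasmic arsenite replicate 1, 2 or 3 the cytoplasmic split turned to 45, 46 and 37 higher against 5, 8 and 6 lower, and without nuclear arsenite replicate 3 the nuclear one was 29 higher and 2 lower. The counts without 1 library ran from 0 to 54, from 0 to 31 and from 0 to 1, and are given with each library in the closing section.

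The APEX lines offer the same stress without fractionation. In the inputs none of 66 translation factor sums passed in the arsenite test with line and library set as covariate, as none of all 11316 did (0.0%), while 7 of the 66 and 983 of all were below an unadjusted p of 0.05. Of 26 3'UTR sums 25 were higher after arsenite, at a median of 0.59 beside 0.47 over all 3'UTR sums on this scale. edgeR called 405 sums in all and 5 here: the 3'UTRs of EIF4G1 (2.89) and EIF3A (1.08) higher, and EIF3L introns (-1.43) and the snoRNA sums of EIF4A2 (-1.20) and EIF4G1 (-1.50) lower. A p that misses the threshold does not show that the treatments were alike at this depth.

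Streptavidin capture compared what HuR held near each APEX protein. In enriched libraries the 3'UTR share of translation factor tags in mock cells was 19.5% to 30.3% with APEX-NLS (median 26.5%), 40% to 65.4% with APEX-NES (median 55.5%) and 37.5% to 100% with APEX-G3BP1 (median 60.7%). After arsenite it was 16.7% and 23.1% in the APEX-NLS libraries of set JL0388 and 51.0% and 51.1% in those of JL1024. It was 60.4% to 65.6% with APEX-NES (median 61.6%) and 80.0% to 100% with APEX-G3BP1 (median 88.7%). Over all peaks, those without a gene name included, the APEX-NLS share was 8.35% to 10.6% in mock cells and 13.1% to 15.7% after arsenite. The APEX-NES share over all peaks was 34.7% and 36.7% in set JL0388 but 8.94% and 16.1% in JL1024 in mock cells, and 44.8% and 42.5% against 11.1% and 15.5% after arsenite, so that in JL1024 it overlapped that of APEX-NLS. With APEX-G3BP1 it was 22.6% to 35.9% in mock cells and 22.4% to 61.8% after arsenite. These shares were not tested and can rest on few tags, 10 to 28 with APEX-NES and 2 to 372 with APEX-G3BP1 in mock cells, and 3 to 471 with APEX-G3BP1 after arsenite.

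In mock cells 2 of 18 tested sums were higher with APEX-NLS than with APEX-NES and none lower, against 20.8% over all sums. EIF4G3 introns stood at 182 and 185 CPM in the NLS libraries of set JL0388 and at 26.5 and 29.3 CPM in those of JL1024, against 26.4 and 59.6 CPM and 0 and 9.48 CPM with NES. Within either set both NLS libraries were above both NES libraries (2.34 ± 0.69, SE, limma adjusted p = 0.0228), although the sets differ severalfold in level and in the share of tags in peaks. The call was lost in all 8 fits without 1 library (adjusted p up to 0.123) and with near-identical pairs counted as 1 (0.0531). It was also lost with the smaller and the larger pseudocount, with no filter and when scaled to tags in listed peaks (limma adjusted p = 0.067, 0.0547, 0.214 and 0.15). The introns of EEF1AKMT2, another methyltransferase of eEF1A, were at 4.93, 6.83, 1.89 and 8.38 CPM with NLS and at 0 in all 4 NES libraries (1.69 ± 0.44, adjusted p = 0.0217, lost without any of the 4 NES libraries, up to 0.172). In those NES libraries 1 tag equals 26.4, 19.9, 8.74 and 9.48 CPM, above every NLS value. The values of 0 therefore cannot show a lower level with NES. With near-identical pairs counted as 1 the EEF1AKMT2 call held (1.66, limma adjusted p = 0.0238), but with no filter, edgeR or the larger pseudocount it was lost (0.47, 0.111 and 0.0547). edgeR instead called EIF4G3 introns (2.68) and the snoRNA sums of EEF2 (3.02) and EIF4A2 (1.87) higher with NLS.

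After arsenite 1 of 22 sums was higher and 1 lower with NLS, against 14.1% over all sums (13.8% higher and 0.243% lower). EIF4G3 introns were again higher, at 250, 165, 34.4 and 40.6 CPM with NLS and 26.1, 26.2, 6.21 and 23.0 CPM with NES (2.14 ± 0.56, limma adjusted p = 0.0302). The EIF2S3 3'UTR was lower, at 13.9, 8.92, 28.7 and 11.6 CPM against 131, 39.4, 53.8 and 54.9 CPM (-1.96 ± 0.60, adjusted p = 0.045). Each NLS value of EIF2S3 was below each NES value, in the direction of the nuclear and cytoplasmic fractions. With near-identical pairs counted as 1 both adjusted p were 0.0588. EIF4G3 lost its call without any of the 4 NLS libraries or NES replicate 3 (up to 0.103), with edgeR (1.36, adjusted p = 0.117) and when scaled to tags in listed peaks (0.141), and EIF2S3 in 7 of 8 fits, all but that without NES replicate 2 (up to 0.128). EIF2S3 also lost its call under the replicate block, with the smaller pseudocount and with no filter (adjusted p = 0.0576, 0.062 and 0.143, limma). Scaling to tags in listed peaks lowered the median of all sums from 1.07 to 0.68 in mock and from 0.91 to 0.51 after arsenite. It also turned the median of the mock members from 0.53 to -0.05 and left EEF1AKMT2 and EIF2S3 called, without EIF4G3.

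**Figure D5:**
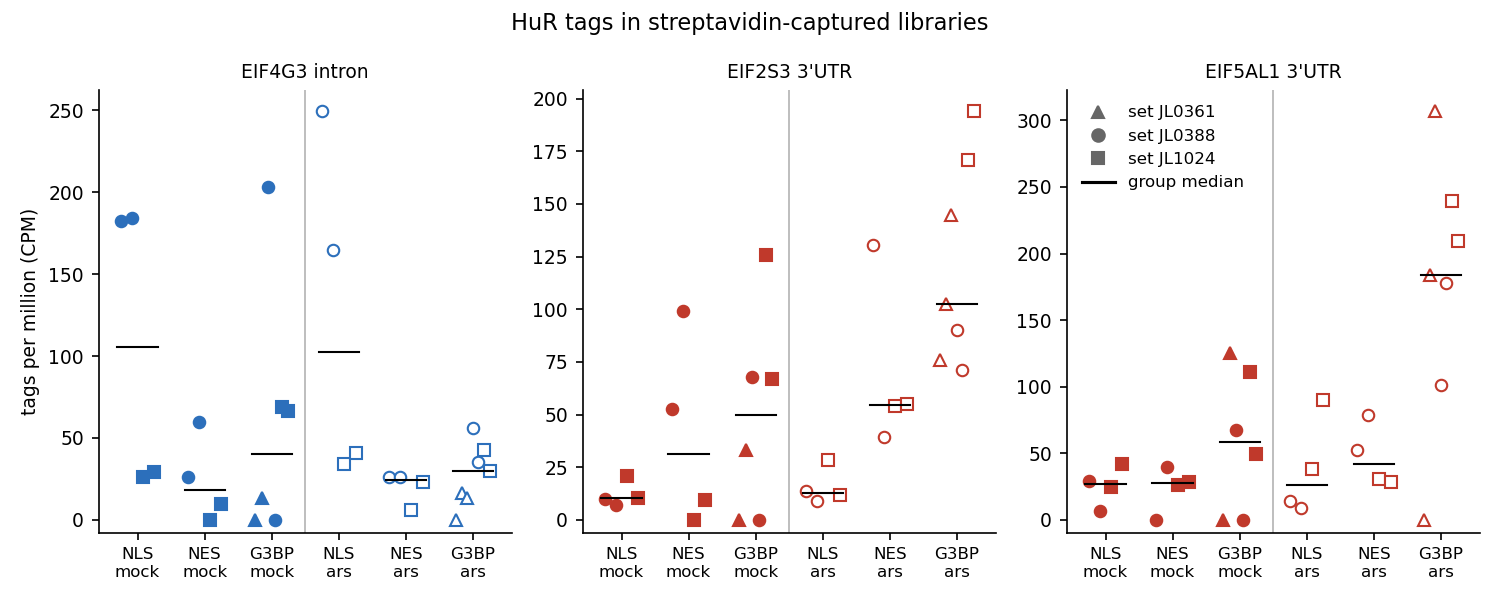
Tags per 1000000 (linear axis from 0) of EIF4G3 introns, the EIF2S3 3'UTR and the EIF5AL1 3'UTR in each of the 29 enriched libraries, with shape for the library set, filled points mock, open points arsenite and black lines at group medians. EIF4G3 introns are highest in NLS libraries of set JL0388 and in 1 G3BP mock library, and both 3'UTRs are highest in G3BP libraries after arsenite. In G3BP mock replicates 1, 3 and 4, with 2, 8 and 2 translation factor tags, 1 tag equals 158, 67.8 and 214.5 CPM.

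APEX-G3BP1 was set against APEX-NES. None of 11 sums was called in mock cells (0.0% over all 1547, where 66 but none of the 11 were below an unadjusted p of 0.05), and edgeR called none. With near-identical pairs counted as 1 none was called there or among all sums, with 1 of the 11 and 219 of all below an unadjusted p of 0.05 (limma). After arsenite none of 12 was called by limma or edgeR, against 3.12% over all sums, with 11 of the 12 higher in G3BP1 libraries, a median of 1.5 beside 0.92 over all, and 4 below an unadjusted p of 0.05. With pairs counted as 1 none of the 12 and none of all 2275 sums was called (limma), 11 of the 12 were higher at a median of 1.42, and 3 were below an unadjusted p of 0.05. The EIF5AL1 3'UTR stood at 101 and 178 CPM (JL0388) and 239 and 209 CPM (JL1024) with G3BP1 and at 52.3, 78.7, 31.1 and 28.3 CPM with NES (1.93 ± 0.63, SE, adjusted p = 0.0745, and 0.0332 with a pseudocount 4 times larger). The 3 libraries of set JL0361, which has no NES library and was outside this test, had 0, 184 and 307 CPM. Scaling to tags in listed peaks lowered the median of all sums in this test from 0.92 to 0.28 and their calls from 71 to 0, with 9 of the 12 sums higher in G3BP1 libraries. With edgeR 6 of the 12 were higher, at a median of 0.02, and of 43 sums called in all 42 were lower.

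The translation factors that the name rule removed or never named were read in the same way. EIF4EBP2, a 4E-BP that competes with eIF4G for eIF4E, held 1216 tags in 23 peaks. Its 3'UTR stood at 16.0 CPM ± 1.42 in nuclear mock, 89.9 CPM ± 10.8 in cytoplasmic mock, 36.9 CPM ± 2.86 in nuclear arsenite and 72.6 CPM ± 6.89 in cytoplasmic arsenite libraries (SD, n = 3). The fraction difference was -2.33 in mock and -0.93 after arsenite, and arsenite raised the nuclear level by 1.10 ± 0.19 (limma adjusted p = 0.00189). EIF4EBP1 held 14 tags in 2 intron peaks.

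A list of 35 other translation genes (poly(A)-binding proteins, release and recycling factors, mTOR pathway and mitochondrial factors), of which 31 had sums, gave 10 of 69 sums higher and 14 lower in the nucleus of mock cells, with 13 of 22 3'UTRs lower (median -1.47) and 9 of 27 introns higher, against 12.8% of all sums higher and 16.2% lower, 49.4% of all 3'UTRs lower and 25.1% of all introns higher. In the nucleus 9 of 69 sums were higher and 2 lower after arsenite (4.48% and 1.65% of all), and in the cytoplasm 3 of 73 were higher and 6 lower (6.7% and 6.62%). LARP1, which binds TOP mRNAs, rose in the nucleus in its 3'UTR from 54.4 CPM ± 6.33 to 166 CPM ± 16.7 (1.58 ± 0.13) and fell in the cytoplasm by 0.97, while its introns rose in the cytoplasm by 1.36. HBS1L, a ribosome rescue factor, fell by 1.55 in the cytoplasm and rose by 0.95 in the nucleus. The release factor gene GSPT1 rose by 1.48, the eIF4A inhibitor gene PDCD4 by 1.90 and the helicase gene DDX3X by 1.23 in nuclear 3'UTRs (limma adjusted p = 0.00458, 0.00478 and 0.000124). For the genes of this list, fits that leave out a library are not given here. The 5'UTR of PABPC4, a poly(A)-binding protein, rose in both fractions, by 1.57 in the cytoplasm and 1.5 in the nucleus.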

How the data were processed

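The 58 CLIP libraries come from the Huh-7.5 line. The deposited table gives, per peak and library, a signal that equals whole tags divided by the library total. Multiplying by that total returned whole tags for 100% of values (tolerance 0.02). Bowtie2, SAMtools, bedtools and HOMER and the build GRCh38.p14 are named, per the submitters' processing notes, without their order. Peak positions are printed as deposited, and whether they count from 0 or 1 is not given in the sources used here. Of 395471 lines, 8257 repeats were dropped. Another 21 columns hold group or annotation values and were not used as samples.

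Values were also summed per gene and annotation class. Tests were limma (3.58.1, R 4.3.3; lmFit and eBayes with trend) on log2(value + pseudocount), two-sided, with Benjamini-Hochberg adjustment over all tested features and a threshold of 0.05. The pseudocount, 2.28 CPM, was the median over libraries of the smallest value above 0. Features above 0 in fewer libraries than the size of the smaller group were not tested. Enriched libraries were compared within the library sets that hold both lines, with the set as covariate. Fold bounds use a floor of 3 tags over the group. edgeR (4.0.16, quasi-likelihood with TMM) ran on the recovered tags as an alternative. It called 5012 gene-and-class sums in all and 38 of translation factors between mock fractions, 1464 and 17 after arsenite, 3124 and 21 for arsenite in the cytoplasm, 1551 and 13 in the nucleus, and 2632 and 19 for the interaction. Both tools were tested on simulated data. The other alternatives were a pseudocount 4 times smaller or larger, no filter, scaling to tags in listed peaks, the replicate number as a block, near-identical pairs counted as 1, and each library left out in turn.

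The members and lists were chosen with earlier results of these data known. Named sums and peaks followed a rule: up to 6 called sums and 5 called peaks per direction, the 12 highest sums, the 2 genes with most tags in each role, the EIF4EBP genes, and up to 4 called sums per direction of the other translation factors. Further called members are named to complete a count.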

Additional observations from a re-analysis of the deposited data

Results flagged for a closer look

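In the G3BP1 input libraries after arsenite, replicate 4 had 37.1% of its translation factor tags in 3'UTRs, the lowest of 5 and far from the others. Replicate 4 is the 1 library of set JL0388 in this group, and the arsenite inputs of that set from the APEX-NLS and APEX-NES lines had 43.4% and 35.0%, where those of set JL1024 had 43.2% and 48.6%. The part of the library set was not tested. Chance alone sets apart about 1 in 20 such groups.

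The arsenite difference differed between the nuclear and the cytoplasmic fraction (limma interaction, log2 scale, Benjamini-Hochberg) for 18 sums. It was higher in the nucleus for the 3'UTRs of EIF3A (2.42), EIF4B (2.26), EIF4G1 (2.06), EIF1AX (1.97), EIF4G2 (1.97), EIF4A1 (1.87), EIF4E (1.83), EIF2S3 (1.73), EIF5AL1 (1.68), EIF4G3 (1.66), EIF5A (1.55), EIF2S3B (1.46) and EEF1A1 (1.10). It was lower in the nucleus for the introns of EIF4G3 (-0.99), EIF2AK3 (-1.07) and EIF5B (-1.30) and for the repeat-annotated peaks of EIF2S1 (-1.56) and EIF4G3 (-1.67).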

How the results depend on the processing

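None of the 63 called sums and 24 called peaks named by the rule changed direction under the alternatives run. Sums that were not called are not covered by this, and of the 12 sums of APEX-G3BP1 against APEX-NES after arsenite 11 were higher, but 6 with edgeR. Of these sums' values under settings other than leaving out a library, 359 stayed on their side of the threshold and 23 did not, and for named peaks these were 128 and 16. With libraries left out, 293 and 159 did so for sums and 48 and 96 for peaks. Where a call was lost, the cause was not tested.

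Counts of called translation factor peaks between mock fractions were 32, then 50 with no filter and 15 with edgeR. Between arsenite fractions they were 4, then 10 with no filter and 7 when scaled to tags in listed peaks. For arsenite in the cytoplasm they were 11, then 28 with the smaller pseudocount (18 higher, 10 lower), 18 with no filter and 19 under the replicate block. For arsenite in the nucleus they were 3, then 9 with no filter and 1 with edgeR. The input test went from 0 to 5 with edgeR.

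APEX-NLS against APEX-NES in mock cells gave 2 sums, then 1 with the smaller pseudocount, scaled to listed peaks or with pairs counted as 1, and 0 with the larger pseudocount or no filter. After arsenite it gave 2, then 1 with no filter, scaling, edgeR or the replicate block, and 0 with pairs counted as 1. APEX-G3BP1 against APEX-NES after arsenite went from 0 to 1 with the larger pseudocount.

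Leaving out 1 library gave 0 to 63, 0 to 1, 0 to 54 and 0 to 31 called peaks in the mock fractions, the arsenite fractions, the cytoplasm and the nucleus. In the cytoplasm the peak counts were 50, 54 and 43 without arsenite replicates 1, 2 and 3, mostly higher, and 2, 0 and 0 without the mock ones. In the nucleus they were 0, 0 and 31 without the arsenite replicates and 0, 1 and 1 without the mock ones. Sums ranged from 30 to 39, 4 to 13, 3 to 20 and 0 to 10 in the same order, 15 to 23 for the interaction, 0 to 4 for NLS in mock, 0 to 2 for NLS after arsenite, and 0 for the inputs and both G3BP1 tests.

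Same-numbered fraction libraries did not deviate together (correlations -0.0534 to 0.0365). With so few libraries per group this cannot tell whether they share a culture or day. With the replicate block the sums called were 46, 17, 22, 13 and 18 against 45, 17, 21, 13 and 18. Depth limits the enriched libraries most, where 2 to 471 tags lay on these genes.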
